A study of Arabidopsis thaliana with 124 samples.

Results

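The SAUR genes (SMALL AUXIN UP RNA) form a large family of genes that respond early to the growth hormone auxin, and their binding by 21 transcription factors was measured in Arabidopsis thaliana seedlings under abscisic acid (ABA) and under a mock treatment. The members were all genes named SAUR with a number, SAUR1 to SAUR79, which gave 79 of the 27444 protein-coding genes on chromosomes 1 to 5. Of the members, 37 lie in 9 tandem loci, defined as SAUR genes less than 10000 bp apart, and 42 stand alone, which makes 51 loci. For each factor a gene was counted when the summit of a peak, its highest point, lay in the gene or within 2000 bp of it, so a gene can have 0 to 21 factors in each treatment. A summit within reach of several SAUR copies counts for each of them, so tandem copies are not independent of each other.

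SAUR proteins are small and short-lived. Several of them bind and inhibit phosphatases of the PP2C.D group, which otherwise remove the activating phosphate from the proton pumps (H+-ATPases) of the plasma membrane. Active pumps acidify the cell wall and let it stretch, a process known as acid growth, and in dark-grown seedlings it drives the elongation of the hypocotyl. ABA is the hormone of drought and seed dormancy and slows seedling growth.

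Seedlings were given 10 µM ABA for 4 h, or ethanol (EtOH) for 4 h as the mock treatment. All were whole Col-0 seedlings grown for 3 days in the dark, each line carrying 1 factor tagged with the fluorescent protein YPet by recombineering, and chromatin was precipitated with a GFP antibody. They comprised 5 bZIP proteins (GBF2, GBF3, ABF1, ABF3, ABF4), 4 homeodomain-leucine zipper proteins (HAT22, HB5, HB6, HB7), 3 NAC proteins (RD26, ANAC032, ANAC102), 2 MYB proteins (MYB3, MYB44) with the MYB-related product of AT5G04760, 2 NF-Y subunits (NFYC2, NFYB2), the heat shock factor HSFA6A, and the proteins DREB2A, FBH3 and ZAT6 of other families. Each treatment had 3 libraries for 19 factors, while ZAT6 and ANAC102 had 2, and the controls were 2 libraries of untagged Col-0 chromatin that the labels place under ABA. Whole seedlings mix all cell types, and the number of independent lines behind a factor is not stated in the labels.

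The data are 42 peak lists of 15 to 18096 peaks, each pooling the replicates of 1 factor and treatment. A list therefore has no replicate error of its own and read depth is unknown. The counts below are descriptions, and the single test made, across factors, measures the spread between factors and not between libraries. The sources used here do not say how reads that match several near-identical SAUR copies were placed, so the values of single copies in tandem loci are uncertain.

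Most SAUR genes were occupied by many of the factors in both treatments. The median was 12 factors per SAUR gene under ABA and 11 under mock, against 9 and 5 over all protein-coding genes. At least 10 factors were found at 56 of the 79 SAUR genes under ABA (70.9%), where 48.1% of all genes reached that number. Under mock 46 SAUR genes did so (58.2%), against 30.3% of all genes. At least 5 factors were found at 66 SAUR genes under ABA (83.5%, against 67.0% of all genes) and at 63 under mock (79.7%, against 54.5%). At least 15 factors were found at 26 SAUR genes under ABA (32.9%, against 28.6% of all genes) and at 11 under mock (13.9%, against 9.48%). The difference from all genes under ABA depends on the rule. At least 10 factors were found at 34.2% of SAUR genes under ABA within 500 bp, against 28.1% of all genes, and at 30.4% with a −log10 p, the score the authors give each peak, of at least 32, against 26.4%. Under mock the shares were 36.7% against 15.5% within 500 bp and 29.1% against 10.9% with that −log10 p. SAUR genes are short, with a median length of 813 bp against 2078 bp, and a short gene with its flanks offers less sequence for a summit. The 8324 genes under 1500 bp had medians of 6 and 3 factors. At least 1 factor was found at 77 SAUR genes in each treatment, against 87.3% of all genes under ABA and 82.1% under mock. SAUR37 and SAUR75 had none in any list.

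Counted by locus, so that tandem copies enter once, the median was 12 factors under ABA and 9 under mock. At least 10 were found at 35 and 24 of the 51 loci. A tandem locus takes in the summits near all its copies, so it covers more sequence than a single gene. Other genes were not counted by locus, so these numbers have no background. The tandem locus of SAUR49, SAUR50 and SAUR1 to SAUR5 on chromosome 4 led with 20 factors under ABA and 19 under mock. SAUR78 (AT1G72430) also had 20 factors under ABA, and 15 under mock. The locus of SAUR13 to SAUR16 had 19 and 17, and its member SAUR15 (AT4G38850), the auxin-inducible gene first described as SAUR-AC1, had 18 and 17 on its own. SAUR36 (AT2G45210), known from leaf senescence, and SAUR59 (AT3G60690) each had 18 and 17. SAUR72 had 18 and 14, SAUR77 had 18 and 13, SAUR44 had 17 and 16, the pair SAUR51 and SAUR52 had 17 and 15, and SAUR40 had 17 and 14. At the other end, SAUR60 and SAUR76 had GBF3 alone in both treatments, and SAUR34 and SAUR56 had 1 factor under ABA and 3 under mock. SAUR56 had 17 factors in each treatment when any base of a peak within 2000 bp counted, so its low number depends on where the summits lie.

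**Figure D1:**
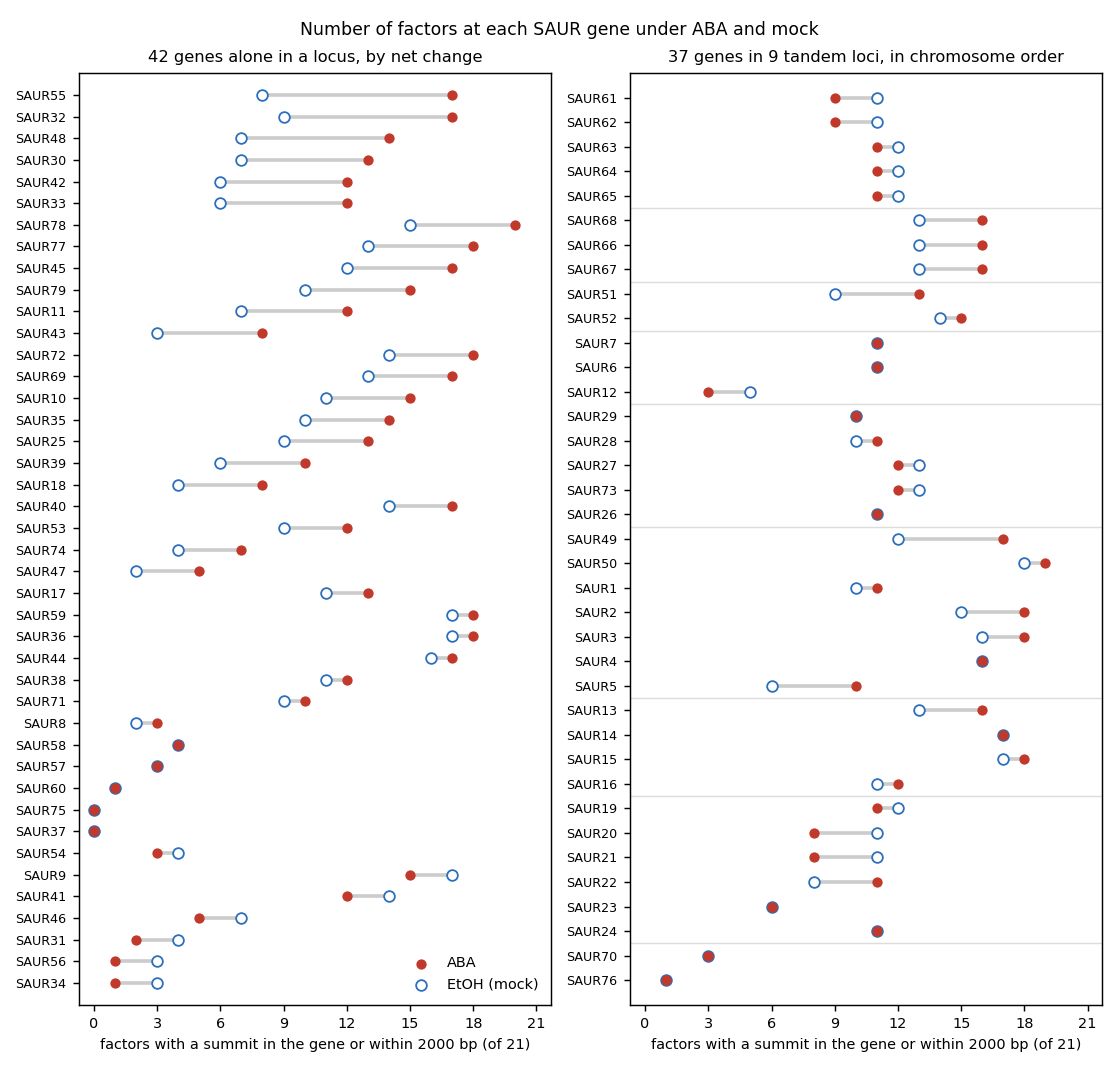
Number of factors, of 21, with a summit in or within 2000 bp of each SAUR gene, under ABA (filled red) and EtOH mock (open blue; hidden where both numbers are equal). The left panel holds the 42 genes alone in a locus, from SAUR55 with 17 factors under ABA and 8 under mock at the top, and the right panel the 37 genes of the 9 tandem loci, where SAUR20 and SAUR21 had 8 under ABA and 11 under mock.

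At some SAUR genes the summits of many factors lay close together. The lists held 1817 different summits near SAUR genes, 995 under ABA and 822 under mock. Of these, 12.1% lay inside a SAUR gene and 44.8% outside it within 500 bp, and the median distance was 312 bp. Joining summits no more than 150 bp apart gave 212 sites, of which 60 held 1 factor in all. A chain of summits can be wider, as at SAUR10 with 466 bp. Sites near other genes were not counted, so these numbers have no background. At least 10 factors met at 37 sites in ABA-treated seedlings and at 27 in mock seedlings. The fullest site, chr4:16582980-16583097 (TAIR10) at SAUR50, a gene that opens cotyledons in the light, had 19 factors under ABA and 18 under mock within 118 bp. All 18 factors of mock were present under ABA too, and HSFA6A was added. The site chr1:29772007-29772099 at SAUR40 had 17 factors under ABA and 14 under mock, and chr1:10320876-10321074, within reach of SAUR66, SAUR67 and SAUR68, had 16 and 13. SAUR14 and SAUR15 shared a pair of sites that differed in their change. At chr4:18125790-18125882 there were 16 factors under ABA and 17 under mock, and at chr4:18127057-18127153 there were 16 and 9. HB6, HAT22 and the AT5G04760 protein, found at the latter under ABA alone, had mock summits at chr4:18127747-18127764 near SAUR15. A difference at a site, here and below, can thus be a summit at another site of the same gene. SAUR15 as a gene had 18 and 17 factors.

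The strongest SAUR peaks, by their rank in the list, belonged mostly to factors present in both treatments. The MYB3 peak at SAUR66 had a −log10 p of 73.99 under ABA (chr1:10320336-10322473, rank 35 of 6213 peaks) and 74.24 under mock (chr1:10320102-10322473, rank 7 of 3405). The HB5 peak there ranked 205 of 9558 under ABA and 11 of 10026 under mock. Near SAUR17 the ABF1 peak ranked 159 of 8512 under ABA and 6 of 2494 under mock, but its summits lay 1926 and 1911 bp from the gene. At SAUR36 the RD26 peak under ABA ranked 71 of 11825 with its summit 127 bp from the gene, and the ANAC032 peak, with its summit inside the gene, ranked 85 of 7977. A MYB44 peak 285 bp from SAUR15 ranked 60 of 11479 under ABA (chr4:18126686-18128129). Ranks in lists of different length do not measure a change. The −log10 p compares only within a list, so values from an ABA and a mock list, here and below, do not measure one either.

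Different factors favoured SAUR genes to different degrees. MYB3, an R2R3-MYB protein known as a repressor, was found at 58.2% of SAUR genes under ABA and 53.2% under mock. Of all genes 30.8% and 17.5% had it, and its ratio was the highest of the 21 factors in both treatments (1.89 and 3.04). Tandem copies enter this ratio separately, and at the 42 single genes MYB3 did not lead. It was at 40.5% of those genes under ABA and 31.0% under mock. ABF4 was at 61.9% of them under ABA, against 43.4% of all genes, and ANAC032 at 9.52% under mock (4 genes), against 4.58%. HAT22 was found at 70.9% under ABA and 68.4% under mock, against 43.0% and 34.9% of all genes. HB5 was found at 70.9% and 73.4%, against 44.5% and 46.0%, and MYB44 at 82.3% and 65.8%, against 52.0% and 34.0%. HB6 was at 69.6% of SAUR genes under ABA and 68.4% under mock, against 53.0% and 46.0% of all genes, and the AT5G04760 protein at 73.4% and 70.9%, against 53.6% and 45.5%. Among the bZIP proteins, ABF3 was at 68.4% and 70.9%, against 54.0% and 45.1%, and ABF4 at 50.6% and 45.6%, against 43.4% and 33.4%. GBF2 was at 65.8% and 77.2%, against 50.1% and 48.7%, and GBF3 at 81.0% and 86.1%, against 65.8% and 61.8%. NFYB2, the factor with the longest lists, was at 84.8% and 86.1%, against 74.0% and 65.7%. HB7 was at 73.4% of SAUR genes under ABA and 24.1% under mock, against 61.1% and 19.1%. In all, 16 of the 21 factors had a higher share at SAUR genes than at all genes under ABA, and 18 under mock, counting ANAC102 under ABA, whose shares are equal to 3 digits. The NAC proteins and NFYC2 stayed near or under the background. ANAC102 was at 25.3% of SAUR genes and 25.3% of all genes under ABA, and at 12.7% and 15.5% under mock. RD26 was at 51.9% of SAUR genes under ABA and 41.8% under mock, against 55.9% and 37.5% of all genes, and NFYC2 at 38.0% and 32.9%, against 43.4% and 32.4%. ANAC032 was at 43.0% and 6.33%, against 39.3% and 4.58%. ZAT6 was at 50.6% of SAUR genes under ABA, near the 52.6% of all genes, and at 51.9% under mock, against 24.0%. The factors with the shortest lists were rare at SAUR genes too. DREB2A was at 8.86% under ABA and 0 genes under mock, against 9.14% and 0.0875% of all genes, and HSFA6A at 12.7% and 0 genes, against 11.1% and 0.27%. FBH3 was at 0 SAUR genes under ABA and 11.4% under mock, against 1.24% and 6.5%. ABF1, an activator of ABA-responsive genes, was at 44.3% under ABA against 41.9% of all genes, and at 15.2% under mock against 14.6%.

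**Figure D2:**
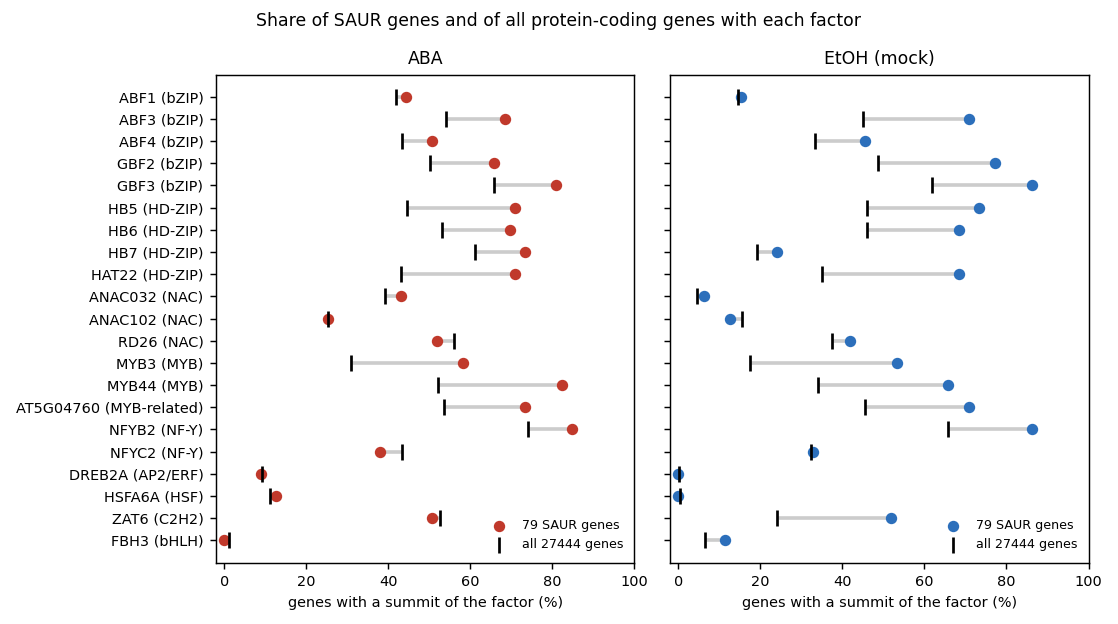
Share of the 79 SAUR genes (coloured points) and of all 27444 protein-coding genes (black ticks) with a summit of each factor, in percent, under ABA (left) and EtOH mock (right). MYB3, HAT22, HB5 and MYB44 lie far to the right of their ticks, whereas ANAC102 under ABA sits on its tick at 25.3%.

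The shares differed between tandem and single genes. Under ABA, HB5 was at 94.6% of the tandem genes and 50.0% of the single ones, MYB44 at 97.3% and 69.0%, and MYB3 at 78.4% and 40.5%. RD26 ran the other way, at 40.5% of tandem and 61.9% of single genes. By locus, which counts shared summits once, MYB3 was at 25 of 51 loci under ABA and 21 under mock, HB5 at 29 and 33, and RD26 at 30 and 25.

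The comparison of ABA with mock asked which factors were gained or lost at SAUR genes. With the lists as deposited, 46 SAUR genes had more factors under ABA (58.2%, against 75.5% of all genes), 18 had fewer (22.8%, against 3.67%) and 15 had equal numbers (20.8% of all genes had). A net change of at least 2 factors towards mock was seen at 11 SAUR genes, 13.9% against 1.15% of all genes, and one of at least 5 towards ABA at 13, 16.5% against 24.1%. One of at least 5 towards mock was seen at 0 SAUR genes (0.0364% of all genes). Counted by locus, 35 of the 51 loci had more factors under ABA, 9 had fewer and 7 had equal numbers. Other genes were not counted by locus. At least 1 factor was found under mock alone at 45 SAUR genes, 57.0% against 22.3% of all genes. At SAUR genes there were 202 gains, a factor found under ABA alone, and 74 losses, a factor found under mock alone. Losses made up 26.8% of these changes, against 8.99% over all genes. Without ZAT6 and FBH3, left out after their losses had been seen, the shares were 20.8% and 7.95%. Without ZAT6 alone, 12 SAUR genes had fewer factors under ABA (15.2%, against 3.83% of all genes). With a −log10 p of at least 32, 60.8% of SAUR genes had more factors under ABA and 21.5% had fewer. The shares of all genes were then 65.5% and 3.02%. The ABA list was the longer one for 19 of the 21 factors, and at SAUR genes equal lengths turned the direction. With the longer list of each factor trimmed by −log10 p to the length of the other, 18 SAUR genes had more factors under ABA (22.8%, against 32.4% of all genes) and 48 had fewer (60.8%, against 27.1%).

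In the exact two-sided sign test of gains against losses over the 21 factors, with Benjamini-Hochberg adjustment over the 24128 genes that had any factor, 0 genes passed at 0.05, and the lowest adjusted p was 0.149. At an unadjusted p below 0.05, 3885 genes had more factors under ABA (16.1%) and 5 had fewer (0.0207%). Of the 77 SAUR genes tested, 6 had more at that level and 0 had fewer. The test treats the factors as independent, although many of them share sites. It also takes gains and losses as equally likely and makes no allowance for list length, although most factors had the longer list under ABA.

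**Figure D3:**
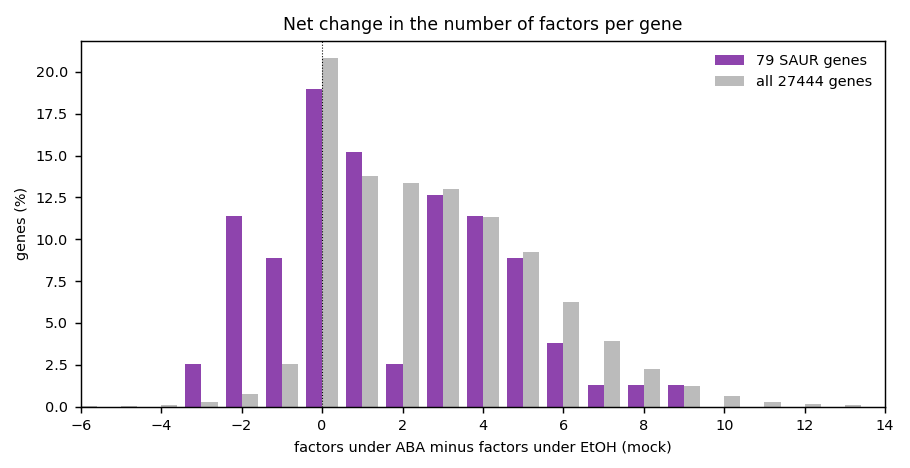
Net change in the number of factors per gene, ABA minus EtOH mock, as a percentage of the 79 SAUR genes (purple) and of all 27444 protein-coding genes (grey). Negative values make up 22.8% of SAUR genes and 3.67% of all genes with the lists as deposited. With lists of equal length these shares are 60.8% and 27.1%.

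SAUR55 (AT5G50760) had the largest net gain, with 17 factors under ABA and 8 under mock (9 gained, 0 lost; exact sign test p = 0.00391, adjusted p = 0.149). The gained factors were ABF1, HB7, HAT22, ANAC032, ANAC102, MYB44, NFYC2, DREB2A and ZAT6. They fell at 3 sites. The site chr5:20643278-20643474 had 10 factors under ABA and 7 under mock, chr5:20644263-20644484 had 9 and 2, and chr5:20646137-20646203 had 5 and 0. NFYB2, present in both treatments, had a −log10 p of 108.85 under ABA (rank 3900 of 18096) and 32.16 under mock (rank 9031 of 14814). These scores come from different lists and do not measure a change. With lists of equal length SAUR55 still had more factors under ABA, 13 against 8.

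SAUR32 (AT2G46690), a gene studied in the apical hook of dark-grown seedlings, had 17 factors under ABA and 9 under mock. It gained 9 and lost 1 (exact sign test p = 0.0215, adjusted p = 0.198). Its fullest site, chr2:19179389-19179540, had 10 factors under ABA and 4 under mock, with ABF3, GBF2, GBF3, HB6, HB7 and MYB3 added. ABF3 was at SAUR32 under mock too, and its mock peak chr2:19176965-19180636 spans this site with its summit elsewhere. GBF3 also had a mock peak with some base within 2000 bp of the gene, but no mock summit there. A site closer to the gene, chr2:19182364-19182428, had 8 and 2. MYB44 had a −log10 p of 89.47 under ABA (rank 283 of 11479) and 69.44 under mock (rank 333 of 7154), and ZAT6 had 85.84 (rank 324 of 11512) and 49.65 (rank 650 of 5146). The HB7 gain rests on a moved summit, since HB7 peaks 19532 bp wide under ABA and 19550 bp wide under mock both span the region. The NFYC2 loss rests on a mock summit exactly 2000 bp from the gene. When any base of a peak counts, SAUR32 had 18 factors under ABA and 13 under mock, and with lists of equal length 13 and 9.

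The other genes with a net gain of at least 5 were spread over the family. SAUR48 had 14 factors under ABA and 7 under mock (7 gained, 0 lost; exact sign test p = 0.0156, adjusted p = 0.169), and its site chr3:3025842-3025999 held the same 14 and 7. SAUR42 and SAUR33 had 12 and 6 and SAUR30 had 13 and 7, each with 6 gained and 0 lost (exact sign test p = 0.0312, adjusted p = 0.198). At SAUR30 the site chr5:21772887-21772929 had 8 factors under ABA and 1, NFYB2, under mock. SAUR78, SAUR77, SAUR79, SAUR45, SAUR49, SAUR43 and SAUR11 had a net gain of 5 factors each. At SAUR45 one site, chr2:15187519-15187606, had 12 factors under ABA and 3 under mock, with ABF1, ABF3 and ABF4 among the 10 found there under ABA alone. Of the 10, ABF3, ABF4, HB6 and NFYB2 had mock summits at other sites of SAUR45, which as a gene gained 6 factors. SAUR35 had a site with no factor under mock, chr4:7341270-7341480, where 8 factors were found under ABA. Of these, ABF3, RD26, the AT5G04760 protein and NFYB2 were at another site of SAUR35 under mock. HSFA6A, a heat shock factor, was also at the site, with rank 21 of 1861 peaks in its list and its summit 1453 bp from the gene. With the nearest gene alone SAUR35 had 12 and 10 factors in place of 14 and 10. SAUR35 was singled out after its values were seen. For SAUR48, SAUR42 and SAUR79 many summits lie far from the gene. Within 1000 bp SAUR48 had 3 and 2 factors, SAUR42 had 0 and 0, and SAUR79, with 15 and 10 as counted above, had 8 and 8. SAUR79 had 7 and 8 within 500 bp and 6 and 8 when each summit counted for the nearest gene alone. SAUR11 had 6 and 6 under each of these last rules. With lists of equal length SAUR78 had 14 factors under ABA and 15 under mock, SAUR11 had 6 and 7, and SAUR43 had 3 and 3.

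The direction of single genes often depended on the rule. Of the 46 genes with more factors under ABA, 30 still had more within 1000 bp (14 were equal and 2 turned), 25 within 500 bp (15 equal, 6 turned), 28 with the nearest gene alone (14 equal, 4 turned) and 18 with lists of equal length (10 equal, 18 turned). Of the 18 genes with fewer, 11 still had fewer within 1000 bp (3 equal, 4 turned), 9 within 500 bp (3 equal, 6 turned), 11 with the nearest gene alone (4 equal, 3 turned) and 18 with lists of equal length. The rule used here was compared with 8 alternatives for peaks, distances and list lengths, which did not include leaving out single factors. Under all of them SAUR77, SAUR66, SAUR67, SAUR45, SAUR32, SAUR72, SAUR33, SAUR49, SAUR55 and SAUR30 had more factors under ABA. SAUR61, SAUR62, SAUR19, SAUR20 and SAUR21 had fewer under all of them. SAUR19 gained HB7 and lost ANAC102 and ZAT6, so without either lost factor its numbers are equal. SAUR61 and SAUR62 share summits, as do SAUR20 and SAUR21, so the genes of each pair are not independent.

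The gains came mainly from factors whose ABA lists were much longer. HB7 was gained at 39 SAUR genes (49.4%, against 42.3% of all genes), ANAC032 at 29 (36.7%, against 34.9%) and ABF1 at 23 (29.1%, against 27.5%), and these shares lie near those of all genes. For 16 of the 21 factors the gained share was lower at SAUR genes than at all genes, and for 13 the lost share was higher. MYB44 was gained at 13 SAUR genes (16.5%, against 18.5%) and lost at 0 (0.572% of all genes).

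ZAT6, a C2H2 zinc finger protein of stress responses, differed most from its own background. It was found under mock alone at 16 SAUR genes, 20.3% against 0.816% of all genes, although its ABA list was the longer one (11512 peaks against 5146). It was found under ABA alone at 15 SAUR genes, 19.0% against 29.5% of all genes. The 16 losses were at SAUR19, SAUR20, SAUR21, SAUR24, SAUR26, SAUR27, SAUR28, SAUR73, SAUR61 to SAUR65, SAUR6 and SAUR7, all tandem, and at SAUR41. The 15 gains were at 14 single genes, among them SAUR79, SAUR55, SAUR42, SAUR18 and SAUR39, and at SAUR5. The ZAT6 losses came from 9 peaks, most of which count for several copies. The strongest, chr1:10305236-10306771 at SAUR63 to SAUR65, had a −log10 p of 50.48 under mock (rank 619 of 5146), and the one at SAUR19, chr5:5963357-5964182, had 41.78 (rank 1115). The others were lower, down to 17.83 at SAUR28, and the median over the 16 genes was 24.37, against 28.07 over the whole mock list. Around 15 of the 16 genes the ABA list had no ZAT6 peak whose any base lay within 2000 bp, and SAUR41 was the exception. Among the gains, the ZAT6 peak near SAUR79 under ABA (chr2:14861902-14864504) had a −log10 p of 67.98 (rank 1910 of 11512). With 2 libraries per treatment ZAT6 is one of the less replicated factors. With lists of equal length it was lost at 17 tandem and 4 single genes, against 4.59% of all genes, and gained at 5 single ones, against 7.11%, so the gains are then near the background. With a −log10 p of at least 32 it was lost at 4 tandem genes and 1 single gene, against 0.437% of all genes, and gained at 2 tandem and 12 single genes, against 25.8%.

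**Figure D4:**
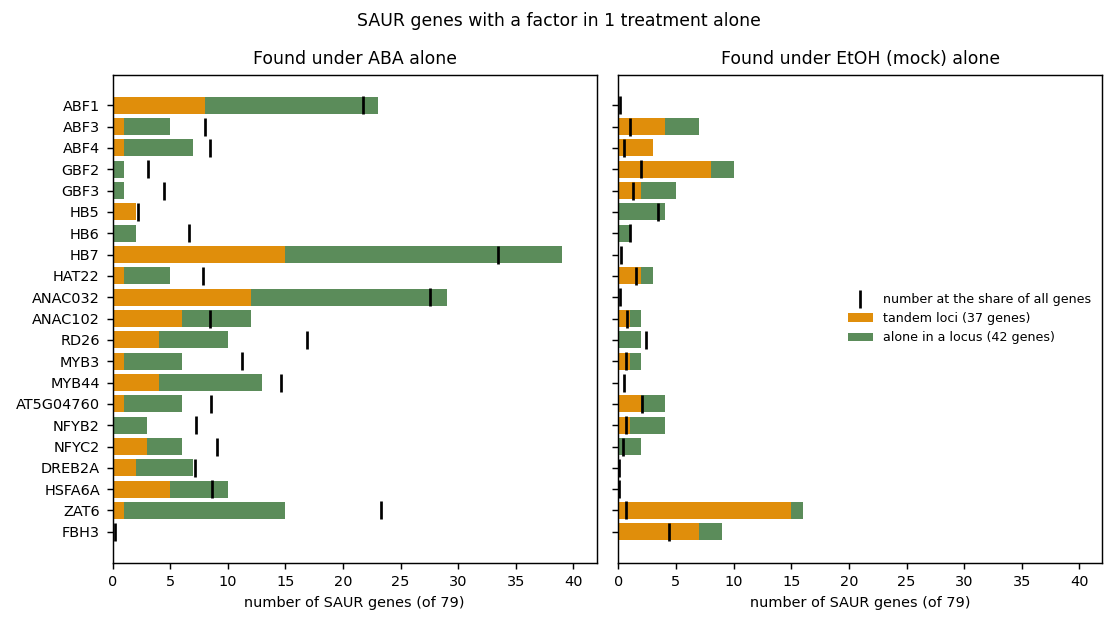
Number of SAUR genes, of 79, with each factor under ABA alone (left) or under EtOH mock alone (right), split into genes of tandem loci (orange) and genes alone in a locus (green), with the number that the share of all genes would give (black ticks). ZAT6 has 15 genes under ABA alone, 14 of them single, and 16 under mock alone, 15 of them tandem.

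FBH3, a bHLH protein, was found under mock alone at 9 SAUR genes (11.4%, against 5.5% of all genes) and at 0 under ABA, where its list held 194 peaks against 1084. The genes were SAUR63 to SAUR65, SAUR36, SAUR2, SAUR3, SAUR9, SAUR14 and SAUR15, and the 9 calls came from 5 peaks, the strongest near SAUR9 (−log10 p 30.97, rank 88 of 1084). GBF2, a bZIP protein of G-box elements, was found under mock alone at 10 SAUR genes (12.7%, against 2.48%) and under ABA alone at SAUR32 (1.27%, against 3.92%). Its peaks at those 10 genes were low, with a −log10 p between 16.89 and 23.31 against a median of 38.06 in its mock list. ABF3 was lost at 7 SAUR genes (8.86%, against 1.28%) and gained at 5 (6.33%, against 10.2%). The 7 losses came from 5 peaks. At 3 of the 7 genes the ABA list had an ABF3 peak with some base within 2000 bp. The other list had such a peak at 1 of the 5 ABF3 gains and at 2 of the 10 GBF2 losses.

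The tandem loci differed from one another. At SAUR61 to SAUR65, 5 of 5 genes had fewer factors under ABA, with 3 gains and 10 losses. At SAUR19 to SAUR24, 1 of 6 genes had more and 3 had fewer, with 9 gains and 13 losses. At SAUR26 to SAUR29 with SAUR73, 1 of 5 had more and 2 had fewer, with 7 gains and 8 losses, and at SAUR6, SAUR7 and SAUR12, 1 of 3 had fewer, with 2 gains and 4 losses. ZAT6 accounted for 5, 4, 4 and 2 of the losses at these 4 loci. These gains and losses count a shared summit for each copy. Counted once per locus, the 4 loci had 11, 15, 12 and 11 factors under ABA and 12, 13, 13 and 11 under mock. By that count SAUR19 to SAUR24 had more under ABA. RD26 and ANAC032 were found at no gene of the 4 loci in either treatment, whereas HB5 and MYB44 were found at every one under ABA. At SAUR49, SAUR50 and SAUR1 to SAUR5, 6 of 7 genes had more factors under ABA and 0 had fewer, with 20 gains and 4 losses. At SAUR13 to SAUR16, 3 of 4 had more, with 11 gains and 6 losses, at SAUR66 to SAUR68, 3 of 3 had more, with 9 gains and 0 losses, and at SAUR51 and SAUR52, 2 of 2 had more, with 6 gains and 1 loss. Here too a shared summit counts for each copy. Counted once per locus, these loci had 2, 3, 3 and 2 gains and 1, 1, 0 and 0 losses. They then had 20, 19, 16 and 17 factors under ABA and 19, 17, 13 and 15 under mock. RD26 was at 6 of 7, 4 of 4, 3 of 3 and 2 of 2 genes of these loci under ABA, and at 5, 4, 0 and 2 under mock. SAUR70 and SAUR76 had equal numbers in both treatments, 3 and 1 factors, with none of RD26, ANAC032 or ZAT6. The 42 single genes had medians of 12 and 7.5, with 30 genes more and 7 fewer, and 135 gains and 28 losses.

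**Figure D5:**
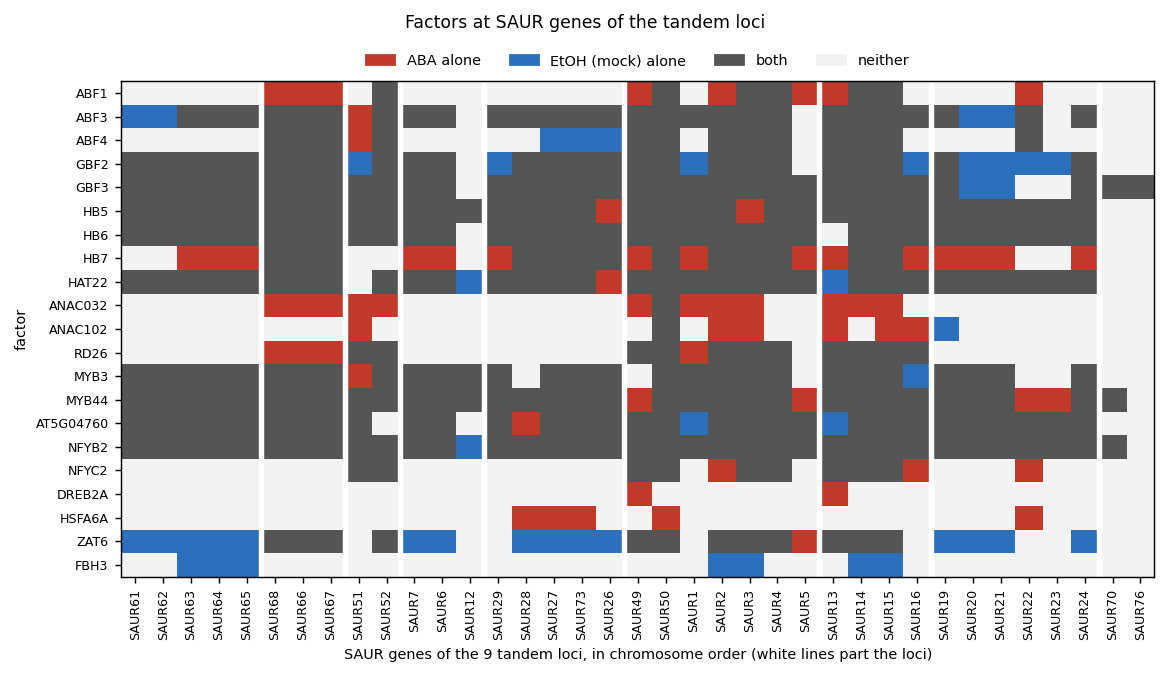
Each of the 21 factors (rows) at the 37 SAUR genes of the 9 tandem loci (columns, in chromosome order): found under ABA alone (red), under EtOH mock alone (blue), in both (dark grey) or in neither (light). The rows of HB5, HAT22 and MYB44 are dark grey nearly throughout, and the ZAT6 row is blue at 15 genes of the loci of SAUR61, SAUR6, SAUR26 and SAUR19.

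Because a gene with many factors under mock has more to lose, genes of like mock number were set side by side. This comparison was not planned, and tandem copies in it share summits. Of the genes with 10 to 14 factors under mock, 11 of 35 SAUR genes had fewer under ABA (31.4%), against 3.07% of the 5668 other genes. The 11 were 10 of 24 tandem genes (41.7%) and 1 of 11 single genes (9.09%). At 5 to 9 factors under mock, 2 of 17 SAUR genes had fewer (11.8%, against 4.07% of other genes), 1 of 5 tandem and 1 of 12 single. At 1 to 4 factors, 4 of 14 had fewer (28.6%, against 5.57%), 0 of 2 tandem and 4 of 12 single genes, and at 15 to 21 factors 1 of 11 had fewer (9.09%, against 4.82%), 0 of 6 tandem and 1 of 5 single genes. So tandem genes had the larger share at 5 to 14 factors and single genes at the other numbers. Over all mock numbers, 11 tandem and 7 single genes had fewer factors under ABA, and without ZAT6 these were 5 and 7.

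Within the groups of the family, the SAUR19 to SAUR24 genes, which inhibit PP2C.D phosphatases and drive hypocotyl elongation, had a median of 9.5 factors under ABA and 11 under mock. One of the 6 had more, SAUR22 with 11 and 8, and 3 had fewer. SAUR22 had 6 and 6 within 1000 bp, and 4 and 5 within 500 bp and by the nearest gene alone. SAUR20 and SAUR21 shared the most negative net change of the family, with 8 factors under ABA and 11 under mock. Both lost ABF3, GBF2, GBF3 and ZAT6 and gained HB7. Their shared site chr5:5966734-5967021 had 7 factors under ABA and 11 under mock, with HB5, HB6, HAT22, MYB3, MYB44, the AT5G04760 protein and NFYB2 in both. SAUR19 had 11 and 12 factors. The thermoresponsive group SAUR25 to SAUR28 had medians of 11.5 and 10.5. SAUR25 is a single gene and had 13 and 9, while SAUR26 had 11 and 11 and SAUR27 had 12 and 13. Within 500 bp SAUR25 had 2 and 3 and SAUR27 had 11 and 10.

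The group of SAUR61 to SAUR68 with SAUR75, of which SAUR63 is known to promote hypocotyl and stamen filament growth, had medians of 11 and 12. Its 2 neighbouring clusters had opposite net changes. SAUR61 to SAUR65 had 9 to 11 factors under ABA and 11 to 12 under mock, and SAUR66, SAUR67 and SAUR68 had 16 and 13 each, with ABF1, ANAC032 and RD26 added. Within 500 bp SAUR63 and SAUR64 had 11 and 10 each and SAUR65 had 8 and 7, which turns their direction. Under lists of equal length SAUR63 had 10 and 11 factors and SAUR66 had 14 and 13. SAUR75, known from pollen, had none.

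The SAUR41 group had medians of 14.5 under ABA and 14 under mock, with 3 of 4 genes having more. SAUR41 itself (AT1G16510) had 12 and 14, with ABF1 and HB7 gained and ABF3, HAT22, RD26 and ZAT6 lost, and when any base of a peak counts it had 18 and 14, which turns the direction. Its relatives SAUR40, SAUR71 and SAUR72 had 17 and 14, 10 and 9, and 18 and 14 factors. SAUR76 to SAUR79, a group studied in ethylene-controlled growth, had medians of 16.5 and 11.5 with 15 gains and 0 losses, although SAUR76 had 1 factor in each treatment. The SAUR9, SAUR10, SAUR16 and SAUR50 group had medians of 15 and 14. SAUR9 had 15 and 17, with NFYC2 and FBH3 lost, but 13 and 11 within 1000 bp and 9 and 6 within 500 bp, which turns the direction. SAUR10 had 15 and 11, and 8 and 11 with lists of equal length. SAUR16 had 12 and 11, and 10 and 11 within 1000 bp. SAUR15, SAUR32, SAUR36 and SAUR53 were looked at one by one, and each had more factors under ABA. SAUR53 had 12 and 9, and 9 and 9 with lists of equal length. SAUR15 and SAUR36 differed by 1 factor between the treatments and had 17 and 17 within 1000 bp.

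The genes around the SAUR proteins in the acid growth pathway were counted the same way, all with the lists as deposited. None of them passed the sign test after adjustment. Their changes are read beside those of all genes, of which 75.5% had more factors under ABA and 8.99% of whose changes were losses. Of the 6 auxin receptor genes, 4 had more factors under ABA (66.7%) and 1 fewer, with medians of 15 and 13.5, and TIR1 had 17 and 16. Of the 9 PP2C.D phosphatase genes, whose products the SAUR proteins inhibit, 7 had more (77.8%) and 1 fewer, with medians of 17 under ABA and 10 under mock. They had 52 gains and 7 losses, so 11.9% of the changes were losses, and both shares are near those of all genes. Losses made up 33.3% of the changes at the receptor genes, 10.0% at the pump genes and 21.6% at the activator genes described next. PP2C.D8 had 17 and 4 factors and PP2C.D7 had 19 and 11, while PP2C.D1, the partner best studied with SAUR19, had 8 and 11. Of the 11 proton pump genes, 7 had more (63.6%) and 0 fewer, with medians of 12 and 9. AHA2, a main pump of the seedling, had 18 and 16, and AHA6 and AHA10 had none. Of the 10 growth activators ARF6, ARF7, ARF8, ARF19, PIF3, PIF4, PIF5, PIF7, BZR1 and BES1, 7 had more (70.0%) and 0 fewer, with medians of 18.5 and 16.5, and PIF4 had 20 and 16. These pathway genes are longer than SAUR genes, with median lengths of 2574 to 5334 bp, and their numbers are not set against those of SAUR genes here.

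A summit near a SAUR gene need not lie closest to it. When each summit counted for the nearest protein-coding gene alone, the medians were 6 factors under ABA and 5 under mock per SAUR gene, and 28 and 23 genes had at least 10. SAUR50 had 19 and 18 factors by this count, SAUR59 18 and 17, SAUR36 17 and 17, SAUR40 17 and 14 and SAUR66 16 and 13, the same or nearly the same as before. SAUR44 had 0 and 0 in place of 17 and 16, SAUR48 had 1 and 0 and SAUR49 had 5 and 4, since other genes lie nearer to their summits.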

How the data were processed

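ChIP-seq peaks of 21 YPet-tagged factors under ABA and mock were used as deposited, in 42 lists that pool the replicates of a factor and treatment, so the libraries behind a list cannot be compared. TAIR10 as the build, Bowtie 0.12.7 and MACS2 2.0.10 are named in the submitters' processing notes, with no role for each. Per peak, the authors deposited a ratio (fold enrichment) and a −log10 p, and peaks were ranked here or filtered within a list by −log10 p. The summit is the deposited start plus the authors' summit offset, another deposited column. The lists start at a −log10 p of about 16, except GBF3 under ABA (17.98) and NFYB2 under ABA (19.25) and mock (17.58), so these lists are shorter than a common limit would make them. Depth is unknown because the lists hold no counts of reads.

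Genes came from an NCBI table of assembly TAIR10.1, which gives no strand, so none of its coordinates are printed and no upstream side is named. Shifting all summits tested whether table and peaks share positions: 33.9% lay in genes at no shift, 34.9% and 35.0% at 50 bp to the left and right and 37.5% and 37.4% at 100 bp. Members were matched by symbol or synonym. AT5G18030 was taken as SAUR21, and AT5G01830, which the table lists under that name, was left out (15 factors under ABA and 15 under mock). AT1G29510 was taken as SAUR67 and AT1G29490 as SAUR68. The planned searches for promoter motifs were not analysed here, and no sequences are printed. Python 3.11.15, numpy 2.4.6, pandas 2.3.3, scipy 1.17.1 and statsmodels 0.14.6 were used. The p-values of the sign test measure the spread between factors, and whether separate cultures gave the replicates is not stated in the labels.

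Genes named are the 10 loci with the most factors under ABA (ties by the mock number, then by position, so SAUR69 with 17 and 13 factors came eleventh), those with a net change of at least 5, those with no factor, and the members of the groups. A few others, marked as such or given as the genes of 1 factor's gains and losses, were chosen after their values were seen. The members, the groups and the lists were chosen with earlier results of these data known. Alternatives were the distance, the overlap rule, the nearest gene, a −log10 p of at least 32, lists of equal length, a set of factors whose lists both reach 500 peaks, each factor left out, and other locus distances and call rules. Removing peaks over 8000 bp wide, the genes under 1500 bp, and leaving out ZAT6 and FBH3 were added after seeing the data. The comparison by mock number and the split into tandem and single genes were not in the plan either.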

Additional observations from a re-analysis of the deposited data

How the results depend on the processing

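Of the 254 values recomputed for the summary counts of SAUR genes and loci, 227 stayed within 1.5 times the reported value and 27 did not. Within 1000 bp, 36 genes had at least 10 factors under ABA. Within 500 bp the medians were 7 under ABA and 5 under mock, 27 and 29 genes and 18 and 15 loci had at least 10 factors, and ZAT6 was found under ABA alone at 6 genes. With the nearest gene alone the medians were 6 and 5, 28 and 23 genes had at least 10 factors, and ZAT6 was found under ABA alone at 9 genes and under mock alone at 8. With a −log10 p of at least 32 the mock median was 6, 24 genes under ABA and 23 under mock and 18 and 12 loci had at least 10 factors, and ZAT6 was found under mock alone at 5 genes. At least 10 factors under ABA were found at 30.4% of SAUR genes there, against 26.4% of all genes, at 34.2% against 28.1% within 500 bp, at 35.4% against 26.5% with the nearest gene alone and at 44.3% against 31.2% with lists of equal length. With lists of equal length 35 genes and 23 loci had at least 10 factors under ABA, 18 genes had more factors and 48 fewer under ABA, and ZAT6 was found under ABA alone at 5 genes. At least 15 factors were found at 26 genes under ABA and 11 under mock. Leaving out each factor in turn gave 52 to 56 genes with at least 10 factors under ABA and 41 to 46 under mock, 42 to 49 genes with more factors under ABA and 12 to 23 with fewer. Removing wide peaks moved none of the counts by over 1.5 times. The fewer-factor share stayed above that of all genes in every setting run, with its lowest value, 15.2% against 3.83%, when ZAT6 was left out. Without HB7 it was 29.1% against 4.46%. Apart from the construction of each setting, the cause was not tested. No paired analysis was possible because the lists pool the replicates, and for the same reason no replicate could be left out. Short lists limit what absence means: DREB2A had 15 peaks and HSFA6A 32 under mock, and FBH3 194 under ABA.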
